A study of Mus musculus with 2 samples.

Results

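The genes described here are 42 genes of DNA repair, most of them from the Fanconi anaemia pathway and homologous recombination, with several from end joining and the damage checkpoint. They were taken by symbol from the deposited tables, which list 34745 gene models, and all 42 were found once in each library. The Fanconi pathway removes crosslinks that join the strands of DNA. Its core complex is a ubiquitin ligase that marks the clamp of FANCI and FANCD2, and the crosslink is then cut out and the break repaired by homologous recombination with BRCA1 and BRCA2. Blood stem cells depend strongly on this pathway, and its inherited loss causes bone marrow failure. End joining, which rejoins broken ends without a template, competes with recombination for the same breaks.

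Messenger RNA was sequenced from progenitor-enriched femur marrow of C57BL/6 mice given 5-fluorouracil, a drug that kills dividing marrow cells. Cells of both groups were transduced with PML/RARa, the fusion of the retinoic acid receptor that drives acute promyelocytic leukaemia. In 1 group the fusion was wild type (WT). In the other it was the 2KR form, and the title of the series speaks of 2 lysines. Each form had 1 library. Both groups were infected with 6 µg/ml polybrene, kept 24 h before the medium was renewed, grown with SCF (50 ng/ml), IL-3 (10 ng/ml) and IL-6 (10 ng/ml), and sorted for transduced cells. The sources used here give neither the age nor the number of the mice, nor the promoter that drove the fusion, and the fusion transcript itself was not measured here. An empty vector named in the protocol was not analysed here, so neither form could be set against cells without the fusion.

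Depth was 17606168 counts in WT and 20462011 in 2KR. Where a pair of values is given below, the WT library comes first. With 1 library per form there was no replicate error, so no test was run and no p-value was computed, and every difference describes these 2 libraries only. A ratio is the CPM (counts per 1000000 after scaling of the libraries) in 2KR divided by the CPM in WT, and the bounds in brackets after it are its exact 95% interval from the counts, for counting error alone, called the interval or counting interval below. The log2 ratio is log2 of 2KR over WT after 1 CPM was added to each. A gene was said to differ 2-fold when its log2 ratio was at least 1 in size. All 42 genes had a mean of at least 1 CPM, as had 12466 gene models in all. These 12466 are called the tested genes below and serve as the background.

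Of 8 progenitor markers, 8 were read at a mean of at least 1 CPM, with a summed level of 3587 and 3605 CPM. The sum hid unequal markers, with an interval above 1 for 3 (Cd34 1.86, Flt3 1.81 and Myb 1.39 as ratios of 2KR over WT) and below 1 for 4 (Kit 0.853, Ptprc 0.773, Ly6a 0.661 and Gata2 0.655). Markers of mast cells and basophils summed to 6420 and 3354 CPM, with 6 of 8 at 1 CPM or more and Fcer1a at 0 in both. Of the 6, 4 were at least 2-fold lower in 2KR (4.56% of tested genes) and 1 was at least 2-fold higher (2.66%). Cpa3 made up most of that sum, at 5468 and 2525 CPM. Hdc, at 748.6 and 371.2 CPM, Ms4a2, at 3.77 and 0.874, and Cma1, at 3.55 and 0.0971, were also lower. Mcpt8 stood the other way, at 190.1 and 449.8 CPM, and the interval of Gata1 held 1, at 5.55 and 6.41 CPM. Monocyte and macrophage markers summed to 257 and 116 CPM, with Ccr2 and Cx3cr1 lower in 2KR and Ly6c2 and Adgre1 higher. Megakaryocyte markers summed to 991 and 1266 CPM. Pf4 was higher in 2KR, at 121 and 406 CPM, Itga2b was close, at 867 and 858, and Vwf was lower, at 2.40 and 1.31. Neutrophil markers summed to 18.8 and 38.5 CPM, most of it Mpo. Lymphoid markers summed to 31.4 and 1.07 CPM, most of it Il7r in WT. Erythroid markers summed to 19.0 and 27.2 CPM. Of these, Hba-a1 was higher in 2KR, at 10.7 and 20.1 CPM, and Hbb-bt lower, at 3.15 and 1.26. Camp, Ly6g, Cd3e and Rag1 were at 0 in both. The libraries thus differed in markers of several cell types, and the part of this in the differences of the repair genes was not tested. In such bulk samples, fewer cells of a type and less RNA per cell cannot be told apart.

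The promoters of 5 of the genes are shown first, because they carry the ends of the range of ratios described below: Brca2 had the highest ratio, Brip1, Chek1 and Chek2 were also among the higher ones, and Xrcc4 had the lowest. The windows are RefSeq sequence on GRCm38.p6, from 250 bases before to 50 after the annotated start, written along the strand of the gene. Capitals mark matches, on either strand, to a word of the E2F type, to CCAAT or to AGGTCA. E2F factors switch on genes of DNA synthesis, NF-Y binds CCAAT, and AGGTCA is the core that retinoic acid receptors read.
Brca2, chr5:150522371-150522670, plus strand: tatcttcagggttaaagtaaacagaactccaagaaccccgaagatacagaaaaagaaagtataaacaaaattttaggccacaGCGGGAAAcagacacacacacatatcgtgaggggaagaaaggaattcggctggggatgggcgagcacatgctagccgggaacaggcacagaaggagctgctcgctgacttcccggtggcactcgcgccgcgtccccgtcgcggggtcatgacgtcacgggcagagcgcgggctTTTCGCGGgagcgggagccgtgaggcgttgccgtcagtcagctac
Brip1, chr11:86201144-86201443, minus strand: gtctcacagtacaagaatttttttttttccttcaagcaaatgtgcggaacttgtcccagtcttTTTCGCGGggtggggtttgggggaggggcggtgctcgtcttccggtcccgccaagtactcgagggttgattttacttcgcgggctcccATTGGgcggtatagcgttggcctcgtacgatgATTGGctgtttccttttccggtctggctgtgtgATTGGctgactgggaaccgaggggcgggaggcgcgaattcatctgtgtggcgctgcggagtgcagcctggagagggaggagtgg
Chek1, chr9:36726609-36726908, minus strand: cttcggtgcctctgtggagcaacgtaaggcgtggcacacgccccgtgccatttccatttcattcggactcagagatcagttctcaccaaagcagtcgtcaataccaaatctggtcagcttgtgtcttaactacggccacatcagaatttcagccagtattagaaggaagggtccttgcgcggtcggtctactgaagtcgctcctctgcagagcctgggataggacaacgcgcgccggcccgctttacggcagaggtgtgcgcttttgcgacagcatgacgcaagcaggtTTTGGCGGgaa
Chek2, chr5:110839733-110840032, plus strand: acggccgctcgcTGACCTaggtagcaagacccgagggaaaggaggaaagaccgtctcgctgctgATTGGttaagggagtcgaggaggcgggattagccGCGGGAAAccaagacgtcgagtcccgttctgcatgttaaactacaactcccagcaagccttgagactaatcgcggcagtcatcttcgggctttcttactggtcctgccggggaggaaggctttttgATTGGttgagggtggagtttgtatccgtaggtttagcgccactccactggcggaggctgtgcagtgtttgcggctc
Xrcc4, chr13:90089559-90089858, minus strand: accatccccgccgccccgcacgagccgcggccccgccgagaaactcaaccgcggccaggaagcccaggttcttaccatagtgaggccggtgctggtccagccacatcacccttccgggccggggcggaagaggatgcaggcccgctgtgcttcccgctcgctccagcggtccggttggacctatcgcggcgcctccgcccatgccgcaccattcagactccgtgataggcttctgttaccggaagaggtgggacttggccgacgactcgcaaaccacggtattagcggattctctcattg

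The E2F words searched were TTTCCCGC, TTTCCCGG, TTTCGCGC, TTTCGCGG, TTTGCCGC, TTTGCCGG, TTTGGCGC and TTTGGCGG, on both strands, and none of them overlaps CCAAT or AGGTCA in the windows shown. The set was widened after windows of the repair genes themselves had been looked at, from the 4 of these words that end in C, which favours a higher share among these genes. The words in Brip1, Chek1 and Rad51b and 1 of the 2 in Brca2 were added that way. With the 4 first words the share was 6 of 33 (18.2%), against 4.74% of tested genes. Of the 42 genes, 33 had a window in the RefSeq table. The 9 without were Exo1, Fancd2, Nbn, Prkdc, Rad50, Rad51d, Rad54b, Rbbp8 and Xrcc2, and 5 of them (Exo1, Fancd2, Rad54b, Rad50 and Xrcc2) are among the 9 highest log2 ratios of the 42, so the shares and medians below leave out much of the top of the range. With the full set, 9 of the 33 (27.3%) held an E2F word: Bard1, Brca2, Brip1, Chek1, Chek2, Fancg, Rad51b, Rad51c and Xrcc6. The share was 9.22% among 9213 tested genes with a window and 4.51% among all 32851 windows. In the Brca2 window the words begin 168 bases before the start and at base 6 after it, and in Chek1 at base 40 after the start. The 9 genes with a word had a median log2 ratio of 0.26 and 8 ratios above 1. The other 24 had a median of 0.15 and 19 ratios above 1. Of all tested genes, with or without a window, 52.3% had a ratio above 1. Among all tested genes the medians were 0.06 with a word (849 genes) and 0.01 without (8364 genes). This split used the widened set. With the 4 first words, the median was 0.23 for the 6 genes with a word, and 5 of them had a ratio above 1. It was 0.16 for the other 27, of which 22 had a ratio above 1. Among all tested genes the medians with the first words were 0.07 and 0.01. CCAAT was in 19 of the 33 (57.6%), against 43.1% of tested genes, and AGGTCA in 5 of 33 (15.2%), against 14.5%. Those 5 were Atr, Chek2, Fancc, Fancl and Rad51b, with a median log2 ratio of 0.12. The word TTTGAA, the core of the cell cycle homology region of mitotic promoters, was in 3 of 33 (9.09%) against 14.1%. The Xrcc4 window held none of the words marked. A match is a run of letters and was not measured as a bound site.

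The question for the series was how the transcriptome of cells with the 2KR form differed from that of cells with the wild-type fusion. Most of the repair genes were slightly higher in the 2KR library. Of the 42, 34 had a ratio above 1, or 81.0%, and 8 had one below 1. Of all tested genes 52.3% had a ratio above 1 and 47.7% one below. The counting interval lay wholly above 1 for 20 of them (47.6%, against 31.6% of all tested genes) and wholly below 1 for 2 (4.76%, against 28.5%). Among the 9118 genes in the same range of mean level, 30.9% had an interval above 1 and 28.1% one below. The differences were small: 0 of the 42 differed 2-fold, against 7.22% of tested genes (2.66% at least 2-fold higher and 4.56% at least 2-fold lower). At 1.25-fold, a size chosen after the values were seen, 11 were higher (26.2%, against 18.7% of tested genes) and 1 was lower (2.38%, against 19.5%).

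The median log2 ratio of the 42 was 0.17, with quartiles of 0.09 and 0.32, and that of all tested genes was 0.02, with quartiles of -0.21 and 0.23. Summed over the 42 genes, the level was 1507 CPM in WT (26342 counts) and 1745 CPM in 2KR (35957 counts), a ratio of 1.16 (1.14 to 1.18). The ratio was not the same for all of them. For 9 of them, Brca2, Exo1, Brip1, Fancd2, Chek2, Rad54b, Chek1, Rad50 and Rad54l, the interval lay wholly above the median ratio of 1.13. For 7, Atm, Nbn, Fancg, Rad51d, Slx4, Lig4 and Xrcc4, it lay wholly below. As shares of the 42 these are 21.4% and 16.7%. Among all tested genes, set against their own median ratio of 1.01, the shares were 29.6% and 30.3%, so intervals of counting error alone leave out the median more often there.

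**Figure D1:**
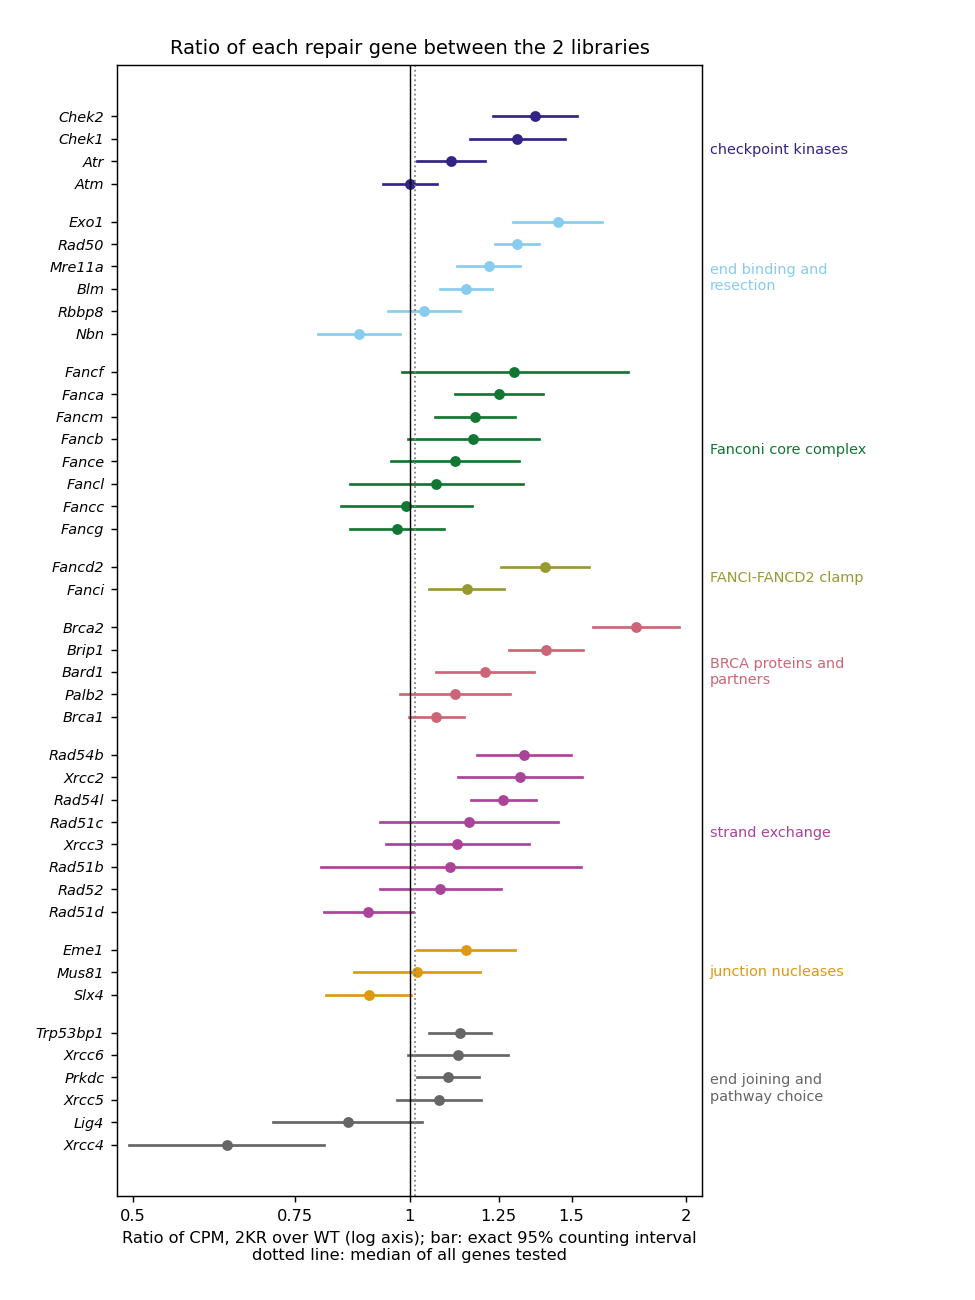
Ratio of CPM in 2KR over WT (x axis, log scale) for the 42 genes, grouped by role, with the exact 95% counting interval as a bar. The solid line marks a ratio of 1 and the dotted line the median of all tested genes. Brca2 lies farthest to the right at 1.76 and Xrcc4 farthest to the left at 0.632, and 34 of the 42 points lie above 1.

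The checkpoint kinases sense damage and halt the cell cycle. Atm, which answers to double-strand breaks, was at 91.1 and 91.1 CPM, a ratio of 1.000 (0.935 to 1.07). Atr, which answers to stalled replication forks, was at 54.5 and 60.4 CPM, a ratio of 1.11 (1.02 to 1.21). Their effectors stood higher. Chek1, the kinase below ATR (ENSMUSG00000032113, chromosome 9, 36708482 to 36727065 in GRCm38), was at 26.4 and 34.6 CPM, a ratio of 1.31 (1.16 to 1.48). Chek2, the kinase below ATM (ENSMUSG00000029521, chromosome 5, 110839979 to 110874145), was at 33.3 and 45.5 CPM, a ratio of 1.37 (1.23 to 1.52). The interval of Chek2 overlapped neither that of Atm nor that of Atr. The interval of Chek1 lay clear of that of Atm but overlapped that of Atr.

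Of 6 genes that bind and trim broken ends, 4 had an interval above 1 (66.7%, against 31.6% of tested genes). Another 1 had an interval below 1 (16.7%, against 28.5%). The MRE11, RAD50 and NBN proteins form 1 complex that finds the end, and their transcripts were not all on the same side of 1. Rad50 (ENSMUSG00000020380, chromosome 11, 53649519 to 53707319) was at 122 and 159.8 CPM, a ratio of 1.31 (1.24 to 1.38). Mre11a, the nuclease, was at 60.8 and 74.1 CPM, a ratio of 1.22 (1.13 to 1.32). Nbn (ENSMUSG00000028224, chromosome 4, 15957925 to 15992589), the subunit that recruits ATM, was on the other side, at 41.9 and 36.9 CPM, a ratio of 0.880 (0.794 to 0.975), and its interval overlapped neither of the other two. Rbbp8, which encodes CtIP, the cofactor that starts resection, was at 49.9 and 51.6 CPM, a ratio of 1.04 (0.946 to 1.13). Of the factors that extend resection, the exonuclease gene Exo1 (ENSMUSG00000039748, chromosome 1, 175880581 to 175913489) had 501 and 855 counts, or 28.7 and 41.5 CPM. Its ratio of 1.45 (1.30 to 1.62) was the second highest of the 42. The helicase gene Blm was at 90.5 and 104 CPM, a ratio of 1.15 (1.08 to 1.23).

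The Fanconi core complex had 8 genes, of which 6 had a ratio above 1 (75%, against 52.3% of tested genes). An interval above 1 was found for 2 (25%, against 31.6%) and one below 1 for 0 (against 28.5%). The summed level of the 8 genes had a ratio of 1.12 (1.07 to 1.18). Fanca, a scaffold subunit, was at 30.7 and 38.4 CPM, a ratio of 1.25 (1.12 to 1.40). Fancm, the translocase that anchors the complex on DNA, was at 38.2 and 45.0 CPM, a ratio of 1.18 (1.06 to 1.30). These were the 2 with an interval above 1. Fancl, the ubiquitin ligase subunit, was low, with 154 and 194 counts, and its ratio of 1.07 (0.861 to 1.33) could not be told from 1 at this depth. Fancb, a partner of FANCL, was at 14.5 and 17.0 CPM, a ratio of 1.17 (0.995 to 1.38). Fancf, a gene of 1 exon, had 85 and 130 counts, and its interval ran from 0.980 to 1.73 around a ratio of 1.30. Fance, which contacts FANCD2, was at 15.8 and 17.7 CPM, a ratio of 1.12 (0.954 to 1.31). Fancc and Fancg, adaptor subunits, had ratios just under 1, 0.991 (0.841 to 1.17) and 0.968 (0.860 to 1.09).

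The clamp that the core complex marks was higher on both sides, with a summed ratio of 1.25 (1.17 to 1.35). Fancd2 (ENSMUSG00000034023, chromosome 6, 113531682 to 113597017) was at 29.8 and 41.8 CPM, with 521 and 861 counts, a ratio of 1.40 (1.26 to 1.57). Its partner Fanci was at 44.4 and 51.2 CPM, a ratio of 1.15 (1.05 to 1.27). The intervals of these 2 overlapped by a narrow margin.

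The BRCA group had the highest summed ratio of the 8 roles, 1.26 (1.21 to 1.32), but its interval overlapped that of the clamp (1.17 to 1.35). By the median ratio of its genes, 1.21, it stood below the clamp, at 1.28. In this group 5 of 5 genes had a ratio above 1, against 52.3% of tested genes. Brca2 (ENSMUSG00000041147, chromosome 5, 150522630 to 150570329) encodes a mediator of recombination that acts on resected DNA. It had 497 and 1032 counts, or 28.4 and 50.1 CPM, and its ratio of 1.76 (1.58 to 1.96) was the largest of the 42. Its log2 ratio of 0.80 lay at percentile 95.8 of all tested genes. Brip1 (ENSMUSG00000034329, chromosome 11, 86058138 to 86201193), a helicase that binds BRCA1, was at 43.0 and 60.4 CPM, a ratio of 1.41 (1.28 to 1.54). Bard1, the obligate partner of BRCA1 in its ubiquitin ligase, was at 25.8 and 31.2 CPM, a ratio of 1.21 (1.07 to 1.37). Palb2, which bridges BRCA1 and BRCA2, was at 20.9 and 23.4 CPM, a ratio of 1.12 (0.976 to 1.29). Brca1 itself, with the most counts of the group, was at 83.0 and 88.7 CPM, a ratio of 1.07 (0.997 to 1.15). The interval of Brca2 overlapped none of those of its 4 partners, and those of Palb2 and Brca1 held 1.

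Among the genes of strand exchange, 7 of 8 had a ratio above 1 (87.5%, against 52.3% of tested genes). An interval above 1 was found for 3 (37.5%, against 31.6%). Rad54l and Rad54b, which encode motor proteins that act on DNA during strand exchange, were at 57.1 and 72.2 CPM, and at 26.6 and 35.4 CPM. Their ratios were 1.26 (1.17 to 1.37) and 1.33 (1.18 to 1.50). Rad51b, Rad51c, Rad51d, Xrcc2 and Xrcc3 encode 5 related proteins that assist recombination. Of these, Xrcc2 was at 15.4 and 20.3 CPM, a ratio of 1.32 (1.13 to 1.54), and was the only 1 of the 5 with an interval clear of 1. Xrcc3 had a ratio of 1.13 (0.941 to 1.35), Rad51c of 1.16 (0.929 to 1.45) and Rad51b of 1.11 (0.800 to 1.54). Rad51b had the fewest counts of the 42, with 69 and 90. The interval of Rad51b held 1, so its ratio could not be told from 1 at this depth. Rad51d, at 34.8 and 31.4 CPM, had a ratio below 1, 0.901 (0.806 to 1.01). Rad52, a mediator of strand annealing, was at 17.8 and 19.3 CPM, a ratio of 1.08 (0.929 to 1.26).

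The nuclease genes that cut branched DNA were close between the libraries, with a summed ratio of 1.01 (0.936 to 1.08). Slx4, the scaffold of these nucleases, was at 38.7 and 34.9 CPM, a ratio of 0.902 (0.811 to 1.00). Mus81 was at 16.6 and 16.9 CPM, a ratio of 1.02 (0.868 to 1.19). Its partner Eme1 was at 25.8 and 29.7 CPM, a ratio of 1.15 (1.02 to 1.30).

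End joining had the gene with the lowest ratio. Xrcc4 (ENSMUSG00000021615, chromosome 13, 89774027 to 90089608), the partner of DNA ligase IV, had 161 and 120 counts, or 9.21 and 5.82 CPM. It was 1.58-fold lower in 2KR (1.24 to 2.02), a log2 ratio of -0.58, at percentile 9.73 of all tested genes. Lig4, the ligase itself, was at 13.2 and 11.3 CPM, a ratio of 0.856 (0.710 to 1.03). The other 4 of the 6 genes of this role had ratios above 1 (66.7%, against 52.3% of tested genes). An interval above 1 was found for 2 of the 6 (33.3%, against 31.6%) and one below 1 for 1 (16.7%, against 28.5%). Xrcc5 and Xrcc6, which encode the Ku proteins that cap a broken end, had ratios of 1.08 (0.969 to 1.20) and 1.13 (0.997 to 1.28). Prkdc, the kinase that Ku recruits, was at 66.3 and 72.9 CPM, a ratio of 1.10 (1.02 to 1.19). Trp53bp1, the chromatin factor 53BP1 that shields ends from resection, was at 65.3 and 74.1 CPM, a ratio of 1.13 (1.05 to 1.23).

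Levels of different genes can be compared only per length of transcript. On the deposited scale, FPKM (fragments per kilobase of gene length and per 1000000 counts), the 42 genes ranged from 1.19 to 18.2 in WT, with a median of 3.75, and from 1.19 to 24.1 in 2KR, with a median of 4.40. On this scale Rad50 was the highest in either library, at 18.2 and 24.1 FPKM, and Fancc the lowest, at 1.19 and 1.19. Nbn, Xrcc5 and Rbbp8 followed Rad50 in WT, at 14.2, 14.1 and 12.8 FPKM. Brca2 was among the lowest, at 1.30 and 2.31 FPKM, and stood at rank 41 of 42 in WT and at rank 32 in 2KR. Xrcc4 went the other way, from rank 33 to rank 41, at 2.02 and 1.29 FPKM. Most neighbours in this order could not be separated: the exact 95% Poisson intervals overlapped for 39 of the 41 neighbouring pairs in WT and for 34 of 41 in 2KR. The 2 pairs set apart in WT were Nbn below Rad50 and Mre11a below Rbbp8.

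**Figure D2:**
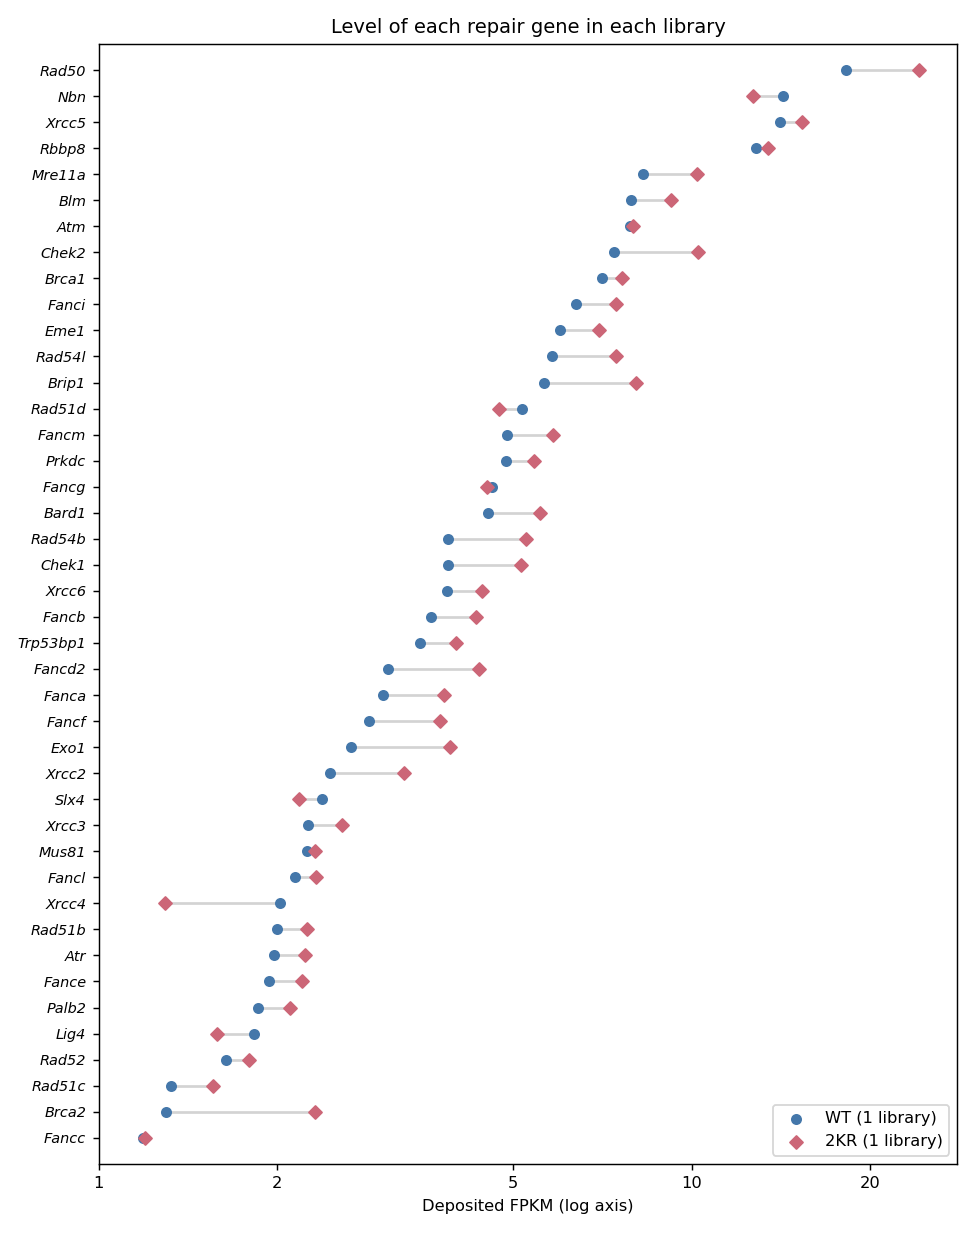
Deposited FPKM (x axis, log scale) of the 42 genes in WT (circles) and 2KR (diamonds), 1 library each, in order of the WT value. Rad50 lies at the top at 18.2 and 24.1 and Fancc at the bottom, and Brca2 and Xrcc4 have the longest grey lines near the lower end.

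The length behind the deposited FPKM matters for this order. In 15403 of 15403 gene models with counts in both libraries, count, FPKM and library total gave the same length within 0.1%. In 6094 of 9247 models with at least 200 WT counts (65.9%), and in 30 of the 42 repair genes, this length was equal within 0.1% to the sum of all distinct exons of the gene in GENCODE M21. Exons that overlap in different isoforms are counted repeatedly in such a sum, so a gene with many isoforms gets a longer length and a lower FPKM. For the 42 genes the deposited length was 1.27 times the merged exon length at the median, and from 0.309 to 2.53 times over all. Fance had a deposited length of 8091 bases against 3192 merged, and Brca2 21792 against 13643. Rbbp8 went the other way, with 3867 against 12521, so its merged exons in M21 hold sequence that the deposited length leaves out. Per kilobase of merged exons, Rbbp8 stood at rank 26 in WT rather than 4, and Fance at rank 19 rather than 36. Rad50, Nbn and Xrcc5 were at 22.7, 16.6 and 14.2 CPM per kilobase in WT and also held the top 3 places on that scale there. In 2KR the first 4 on that scale were Rad50, Xrcc5, Chek2 and Nbn. The lowest there was Rad51b rather than Fancc, at 1.05 and 1.16 CPM per kilobase, and Fancc stood at rank 40 in both libraries. Ratios between the libraries do not depend on the length, since it is the same in both.

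**Figure D3:**
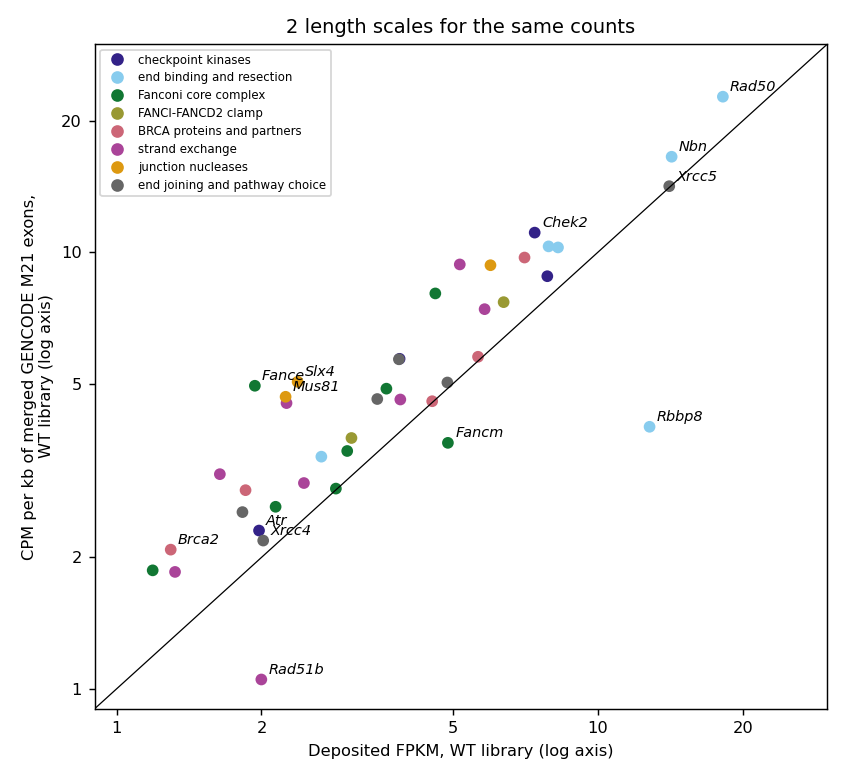
Level of the 42 genes in the WT library on 2 length scales, deposited FPKM (x axis) and CPM per kilobase of merged exons (y axis), both log axes, coloured by role. The line marks equal values. Most genes lie above it, and Rbbp8 and Rad51b lie farthest below.

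Partners of 1 complex differed in transcript level per length. Xrcc5 was at 14.1 and 15.4 FPKM and Xrcc6 at 3.86 and 4.42. Per kilobase of merged exons the pair was at 14.2 and 5.69 CPM in WT. Fanci was at 6.37 and 7.45 FPKM and Fancd2 at 3.08 and 4.37. Within the MRE11 complex, Mre11a was the lowest, at 8.26 and 10.2 FPKM.

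Of the 42 genes, 12 overlap another gene model that had at least 10% of their counts in either library, and in all 12 the annotated exons share bases. Of these 14 overlapping models, 13 lie on the opposite strand. The sources used here do not say whether counting used strand, so reads in the shared bases cannot be assigned. Xrcc4 shares 112 exon bases with Tmem167, which had 1008 and 1167 counts, a ratio of 0.982 (0.902 to 1.07), and lies over Gm4117, which had 71 and 41 counts, a ratio of 0.490 (0.325 to 0.730), and shares no exon bases with it. Fanci shares 921 exon bases with Polg, the mitochondrial DNA polymerase, whose 2996 and 2462 counts gave a ratio of 0.697 (0.661 to 0.736). Fanca shares 920 bases with Zfp276, which had 253 and 190 counts, a ratio of 0.637 (0.525 to 0.772), so these neighbours lay on the other side of 1. Rad54b shares 2068 bases with Fsbp on its own strand, which had 30 and 94 counts, a ratio of 2.66 (1.75 to 4.16). Trp53bp1 shares 2130 bases with Tubgcp4, at 875 and 920 counts, a ratio of 0.892 (0.812 to 0.980), and Rad54l 1184 with Lrrc41, at 1581 and 1922 counts and a ratio of 1.03 (0.965 to 1.10). The other such neighbours were 2010111I01Rik for Fancc, at 728 and 673 counts, Gas2 for Fancf, at 39 and 73, Vrk2 for Fancl, at 219 and 295, and Klc1 for Xrcc3, at 1980 and 2026. Eme1 had Mrpl27, at 125 and 146 counts, and Lrrc59, at 2570 and 3766, and Xrcc6 had Desi1, at 712 and 1052. Brca2, Exo1, Brip1, Fancd2, Chek1, Chek2 and Rad50 had no such neighbour.

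A wider list of 64 measured genes of crosslink and break repair, none of them among the 42, was also mostly higher in 2KR. Of the 64, 47 had a ratio above 1 (73.4%, against 52.3% of tested genes). An interval above 1 was found for 30 (46.9%, against 31.6%) and one below 1 for 7 (10.9%, against 28.5%). The median log2 ratio of the 64 was 0.13. Of them 0 were at least 2-fold higher (2.66% of tested genes) and 1 was at least 2-fold lower (4.56%). That gene was Polm, a DNA polymerase of end joining, at 24.3 and 11.0 CPM, a ratio of 0.453 (0.384 to 0.534). The other large ratios were those of Rad51ap1, a cofactor of strand exchange, at 1.69 (1.55 to 1.85), Rad18, a ubiquitin ligase of damage tolerance, at 1.67 (1.50 to 1.85), and Mcm8, a helicase of recombination, at 1.56 (1.34 to 1.82). Polm and these 3 were picked for the size of their ratio. The highest in mean CPM, which is not a comparison per length, were Topbp1, the activator of ATR, with a ratio of 1.44 (1.38 to 1.49), and H2afx, the histone that is phosphorylated around breaks, with 1.32 (1.27 to 1.38). Sfr1 and Mdc1 followed, with ratios of 0.986 (0.938 to 1.04) and 1.12 (1.06 to 1.18).

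Genes of the cell cycle were also mostly higher in 2KR. The shares of all tested genes beside the counts here are 52.3% with a ratio above 1, 31.6% with an interval above 1 and 28.5% with one below. Of 25 genes of S phase, 24 had a ratio above 1, 21 an interval above 1 and 1 an interval below, with a median log2 ratio of 0.37 against 0.17 for the 42 repair genes. Rrm1 and Mcm6, of nucleotide supply and of the replicative helicase, had ratios of 1.37 (1.33 to 1.42) and 1.29 (1.24 to 1.34), and Hells and Gins2 had 1.71 (1.59 to 1.83) and 1.65 (1.44 to 1.90). Of 25 genes of G2 and mitosis, 25 had a ratio above 1 and 23 an interval above 1, with a median of 0.27. Mki67 and Top2a had ratios of 1.08 (1.06 to 1.10) and 1.29 (1.26 to 1.32), and Kif23 and Ttk had 1.49 (1.38 to 1.60) and 1.43 (1.30 to 1.58). Of 15 genes of the p53 response, 11 had a ratio above 1 and 10 an interval above 1, with a median of 0.35. Another 3 (Eda2r, Fas and Gadd45a) had an interval below 1. Cdkn1a and Ccng1, the highest in mean CPM, had ratios of 1.56 (1.51 to 1.61) and 1.46 (1.41 to 1.51), Zmat3 had 1.96 (1.84 to 2.09), and Fas had 0.452 (0.322 to 0.629). None of these 65 genes differed 2-fold by the log2 rule. The part of cell cycle activity in the ratios of the repair genes was not tested.

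**Figure D4:**
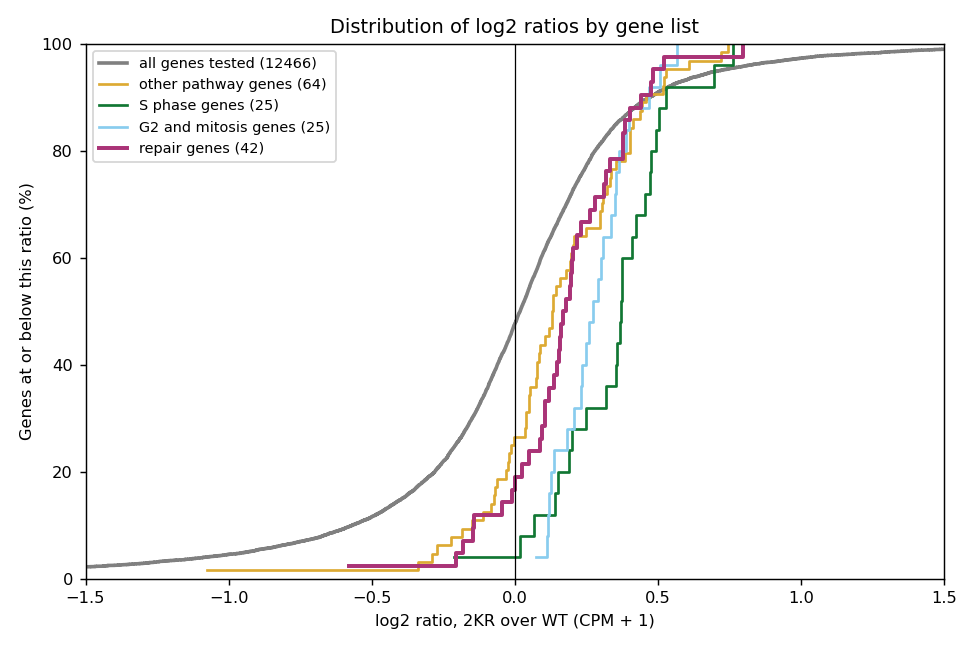
Share of genes (y axis, percent) at or below each log2 ratio of 2KR over WT (x axis) for the 42 repair genes, 64 other pathway genes, 25 genes of S phase, 25 of G2 and mitosis, and all 12466 genes tested. The repair genes, with a median of 0.17, lie to the right of all tested genes (0.02) and to the left of the S phase genes (0.37) at the middle of the curves. Near the top the curve of all tested genes crosses that of the repair genes, since 0 of the 42 reach a log2 ratio of 1.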

How the data were processed

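RNA was measured by RNA-seq in 1 library of WT and 1 of 2KR, grouped by the infection in the labels. HISAT2 2.0.4 and GRCm38 were used, per the submitters' processing notes. The sources used here do not name the counting program, annotation release or use of strand. For each gene model the authors deposited a count of reads, not normalized, and FPKM, per the file headers. Counts were scaled with TMM factors (0.9931 for WT, 1.0070 for 2KR; edgeR 4.0.16 in R 4.3.3). The genes tested had a mean of 1 CPM or more over both libraries, and log2 ratios used a pseudocount of 1 CPM. Clopper-Pearson bounds on the 2KR share of a gene's counts were turned into bounds on the ratio. Reads without molecular identifiers are not independent molecules, so the intervals can be too narrow even for counting error. They cover no variation between cultures, and no replicate exists. The code for the intervals and the 2-fold rule was checked on simulated Poisson counts. That is the model the intervals assume, so the check cannot speak to variation between cultures.

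All 42 members were named. From the other pathway list the 4 largest log2 ratios in size and the 4 highest means were named, from each of the cell cycle, p53 and cell type lists up to 2 of each, and overlapping models with at least 10% of a member's counts. Of the cell type markers the text gives those at 0 and some that make up or part from their list's sum, chosen after their values were seen. Paxx of the pathway list was not matched by symbol, and of the 2 models named Itgam the one with the lower identifier was used. The members, lists and rules were chosen with earlier results of these data known. Exon lengths came from GENCODE M21. Alternatives were other pseudocounts, filters and scalings, and FPKM in place of CPM (DESeq2 1.42.0 for size factors).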

Additional observations from a re-analysis of the deposited data

How the results depend on the processing

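No paired analysis was possible because each form has 1 library. Under 8 alternatives, 0 of the 42 genes differed 2-fold in either direction. Between 33 and 36 had a ratio above 1, while the share of all tested genes above 1 ranged from 50% (centred on the median) to 55.7% (deposited FPKM). The median log2 ratio of the repair genes ranged from 0.14 (pseudocount of 5 CPM) to 0.19 (library totals without TMM factors). Of 41 genes left with a mean of at least 5 CPM, 33 had a ratio above 1, since Rad51b was below that mean. With library totals alone or with deposited FPKM, Atm and Fancc passed from just below to just above 1 and the count became 36. No other gene changed side. In those settings the share of all tested genes above 1 was 54.9% and 55.7%, against 52.3% in the main one. With deposited FPKM the log2 ratio of Brca2 went from 0.80 to 0.53. There 1 was added to an FPKM of 1.30 in WT rather than to 28.4 CPM, which by construction shrinks the log2 ratio of genes of low FPKM. The median of all tested genes ranged from 0.00 (centred by construction) to 0.04. With 1 library per form, variation between cultures cannot be told apart from the difference between the forms. Depth limited the least read genes: the counting interval spanned 0.800 to 1.54 around a ratio of 1.11 for Rad51b, against 1.24 to 1.38 around 1.31 for Rad50.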
